A study of Homo sapiens with 40 samples.

Results

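The response of wild-type (WT) HEK293A cells to OL9-119, an inhibitor of the DNA repair enzyme tyrosyl-DNA phosphodiesterase 1 (TDP1), was read from 8 of the 40 RNA-seq libraries of the series, namely the 4 treated with OL9-119 and the 4 treated with its solvent DMSO. These libraries were chosen by their titles, and the test covered the 28922 of 58395 listed genes whose counts added up to 10 or more over the 40 libraries. HEK293A is an established line derived from human embryonic kidney. WT cells and a PARP1-KO line, in which the PARP1 gene was disrupted with CRISPR/Cas9 and which stands for the knockout as a single line, each received 5 treatments with 4 replicates. The OL9-119 medium held 5 µM of the compound and 0.1% DMSO, the control medium held 0.1% DMSO alone, and cells were exposed for 5 to 5.5 h. WT cells without any addition, and WT cells given 100 nM topotecan (Tpc), a poison of DNA topoisomerase 1 (TOP1), with 0.1% DMSO, served as further groups. PARP1-KO cells received OL9-119 at the same dose in the same solvent.

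TDP1 cleaves the bond between a stalled TOP1 molecule and the 3′ end of DNA, so that the break can be repaired. Several groups of genes described here belong to the integrated stress response, in which kinases that sense a lack of amino acids, misfolded protein or mitochondrial stress phosphorylate the translation factor eIF2α. General translation then slows while the mRNA of the transcription factor ATF4 is translated better, and ATF4 with its partners switches on genes for amino acid synthesis, uptake and tRNA charging. The other groups described in detail are the genes of the mitochondrial genome, which is transcribed from its heavy and its light strand as long precursors, and the cytosolic heat shock genes, whose products fold proteins.

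OL9-119 altered 332 genes at an adjusted p below 0.01 (edgeR quasi-likelihood test, Benjamini-Hochberg adjustment over all genes), which was 1.15% of those tested. Among them 141 genes rose, 0.488% of all genes, and 191 fell, 0.66%. With the 8 libraries fitted alone 95 genes were called, 54 higher and 41 lower. In 295 of the 332 genes the 4 OL9-119 libraries lay wholly above or below the 4 DMSO libraries in CPM (counts scaled to library size), against 3.12% of all genes wholly higher and 2.31% wholly lower. The 332 genes were called on these same libraries, so their separation follows largely from the call and is no separate support. The median log2 fold change was 0.83 for the genes that rose, -0.70 for those that fell and 0.03 over all genes. Left out 1 at a time, the libraries gave 187 to 595 called genes, with 215 without DMSO replicate 3, 595 without DMSO replicate 4, and 201, 206 and 187 without OL9-119 replicates 1, 3 and 4. A change of at least 1 on the log2 scale was reached by 52 genes that rose and 22 that fell. DMSO itself, set against untreated WT cells, gave 0 genes by edgeR, with 3116 at an unadjusted p below 0.05 and 15 genes by DESeq2. Against the untreated cells, which share the OL9-119 libraries with the main comparison, the compound altered 371 genes (1.28%), 130 higher (0.449%) and 241 lower (0.833%).

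Total counts of the 8 libraries lay between 6354734 and 14292607. The replicates of a group were not equally alike. DMSO replicate 3 correlated with the other DMSO libraries at 0.87 to 0.91 (Pearson, log counts over genes) and OL9-119 replicate 2 with the other OL9-119 libraries at 0.94 to 0.95, while the other 3 OL9-119 libraries reached 0.99 among themselves. At a common depth these 2 libraries showed 15805 and 17086 genes. DMSO replicates 1, 2 and 4 showed 18836, 17040 and 20752 genes, and OL9-119 replicates 1, 3 and 4 showed 21079, 20981 and 21794. Without DMSO replicate 3 and OL9-119 replicate 2, 202 genes were called, 96 higher and 106 lower. The 9 genes that mark HEK293 cells, KRT8, KRT18 and VIM the most abundant, summed to 1909 to 2588 CPM in DMSO and 1793 to 2250 CPM in OL9-119, and 0 of them were called. The summed level of the marker list for blood cells was between 0.42 and 5.63 CPM in DMSO and between 3.18 and 3.89 CPM in OL9-119, with PTPRC, MS4A1 and HBB at 0. Lists for endothelial, fibroblast and muscle cells gave 0 called genes each. The fibroblast list summed to 35.8 to 66.6 CPM in DMSO and 31.3 to 53.2 CPM in OL9-119, with COL1A1 (25.6 CPM) and COL3A1 (13.8 CPM) the most abundant. The endothelial list reached at most 8.44 CPM and the muscle list 9.83 CPM, both in DMSO.

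The mRNA of the target and of its substrate enzyme was measured first. TDP1 (ENSG00000042088) stood at 29.7, 20.6, 40.03 and 26.3 CPM in DMSO replicates 1 to 4 and at 29.7, 47.6, 25.4 and 24.1 CPM in OL9-119 replicates 1 to 4. The groups overlapped, and their means of 29.2 ± 8.17 and 31.7 ± 10.9 CPM (SD, n = 4) gave p = 0.686 in an exact two-sided permutation test, whose smallest possible p with 70 divisions was 0.0286. TOP1 averaged 358 ± 28.1 CPM in DMSO and 321 ± 18.7 in OL9-119 (exact permutation p = 0.0857). For PARP1, whose product binds DNA breaks and builds poly(ADP-ribose), the means were 818 ± 54.2 and 783 ± 21.0 CPM (exact permutation p = 0.286), and for TDP2, which acts on TOP2 adducts, p was 0.486. In a list of 17 topoisomerases, TDP enzymes and proteases of TOP1 complexes, 0 genes passed the test at the adjusted p. Over all genes 1.15% passed, so 0 of 17 cannot be told from that share.

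Of the 12 genes that rose most among those with a mean of at least 50 counts, 10 belonged to the integrated stress response. Over 5 lists of this response, 39 of 86 tested genes rose and 0 fell, so that 45.3% rose where the share over all genes was 0.488%. The lists were chosen with earlier results of these data known, so these counts describe them and are no independent test. The median log2 fold change of the 86 genes was 0.52. CHAC1, an enzyme that degrades glutathione and a known ATF4 target, was counted 38, 7, 1 and 12 times in the DMSO libraries and 800, 396, 448 and 387 times in the OL9-119 libraries. These counts were 2.7, 0.738, 0.120 and 1.88 CPM in DMSO and 53.8, 41.4, 47.5 and 39.6 CPM in OL9-119. The groups lay far apart, and the log2 fold change was 4.98 ± 0.44 (SE, adjusted p = 1.12e-12), the highest among genes with a mean of at least 50 counts that passed the test without overlap.

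A short stretch of the promoters of 4 of these genes is shown because each holds the core that ATF4 and C/EBP proteins bind as a pair, searched here as TGATGNAA on both strands. The sequences are from RefSeq, assembly GRCh38.p14, read 5′ to 3′ in the direction of the gene, and the capitals mark the core, which stands on the opposite strand in all 4 and so appears as its complement. For CHAC1 the window is chr15:40953242-40953289 on the plus strand, with the core 209 to 202 bases before the start. For HERPUD1 it is chr16:56931946-56931993 on the plus strand, 176 to 169 bases before the start. For the tRNA synthetase genes it is chr16:70289666-70289713 on the minus strand (AARS1, 187 to 180 bases before) and chr9:92293698-92293730 on the minus strand (IARS1, 13 to 6 bases before).
CHAC1: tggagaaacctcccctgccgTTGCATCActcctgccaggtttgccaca
HERPUD1: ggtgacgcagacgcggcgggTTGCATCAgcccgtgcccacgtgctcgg
AARS1: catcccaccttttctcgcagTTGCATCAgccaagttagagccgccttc
IARS1: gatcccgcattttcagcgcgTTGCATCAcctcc

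The core was found in the promoter windows (250 bases before to 50 after a start) of 4.46% of 27305 genes with a window and of 3.18% of the 15415 such genes that were tested. Among genes that rose, 19 of 107 with a window held it (17.8%), and among genes that fell 3 of 155 (1.94%). Of the stress response genes that rose, 14 of 30 with a window held it (46.7%), and of those that were not called 8 of 39 (20.5%). Among those that rose it stood in 6 of 6 tRNA synthetase genes with a window and in 0 of 3 genes of serine, one-carbon, proline and asparagine synthesis, and the same 6 synthetase genes all held the xenobiotic core GCGTG as well. A match describes the letters only and no binding was measured. The core of the antioxidant response element, TGACNNNGC, stood in 27.1% of the genes that rose and 18.4% of tested genes with a window, and that of the xenobiotic response element in 64.5% and 52.8%. Within the stress response lists these cores also differed by call. The antioxidant core stood in 11 of 30 genes that rose (36.7%) and 5 of 39 not called (12.8%). For the xenobiotic core the shares were 76.7% and 61.5%. None of these differences between shares was tested.

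Of the 18 transcription factors and regulators of the response, 8 rose and 0 fell, with a median log2 fold change of 0.62. CEBPB, a partner of ATF4, stood at 22.3, 10.8, 17.7 and 27.4 CPM in DMSO and 83.3, 86.7, 87.9 and 91.0 CPM in OL9-119 (2.16 ± 0.23, adjusted p = 2.88e-10). DDIT3, which encodes the pro-apoptotic factor CHOP, stood at 39.2, 21.9, 46.0 and 18.8 CPM in DMSO and 107.8, 154.9, 101.4 and 101.004 CPM in OL9-119 (1.87 ± 0.18, adjusted p = 3.38e-11). Both genes were higher in all 4 treated libraries, and for DDIT3 replicate 2 was above the other 3. TRIB3, a pseudokinase that restrains ATF4, rose from a range of 36.8 to 55.5 CPM to one of 123.7 to 157.8 CPM (1.58 ± 0.14). CEBPG, which forms dimers with ATF4, stood at 132.7, 126.5, 132.6 and 133.5 CPM in DMSO and 282.9, 300.5, 293.1 and 278.4 CPM in OL9-119 (1.14 ± 0.10, adjusted p = 1.85e-13). ATF3 rose from 90.6 to 205 CPM (1.18 ± 0.11), and PPP1R15A, the inducible subunit that directs a phosphatase to eIF2α, from 142 to 241 CPM (0.76 ± 0.12). JDP2 (1.49 ± 0.29) and NUPR1 (1.10 ± 0.21) completed the called members, the call for NUPR1 being lost without OL9-119 replicate 2 (adjusted p = 0.024). The exons of DDIT3 overlap MARS1 on the opposite strand, so that reads of the pair may not be fully separated.

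The upstream members of the same list did not pass the test. ATF4, controlled mainly at translation, stood at 483, 409, 621 and 324 CPM in DMSO and 610, 786, 552 and 582 CPM in OL9-119, with DMSO replicate 3 inside the treated range (0.46 ± 0.14, adjusted p = 0.0483). The 4 eIF2α kinase genes had log2 fold changes of 0.10 (EIF2AK1), 0.23 (EIF2AK2), 0.14 (EIF2AK3) and 0.31 (EIF2AK4), with adjusted p between 0.242 and 0.767. DELE1 and OMA1, which relay mitochondrial stress to EIF2AK1, had values of 0.07 ± 0.17 and -0.05 ± 0.38. PPP1R15B, the constitutive counterpart of PPP1R15A, had 0.48 ± 0.13 (adjusted p = 0.0283). The values were -0.11 ± 0.18 for ATF5 and 1.18 ± 1.14 for BATF2.

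Of 20 effector genes, 10 rose and 0 fell, with a median of 0.91. DDIT4, an inhibitor of mTORC1, stood at 47.3, 71.3, 68.2 and 69.3 CPM in DMSO and 231, 223, 254 and 267 CPM in OL9-119 (1.93 ± 0.15, adjusted p = 2.63e-15). STC2, a secreted glycoprotein, stood at 39.3, 54.9, 41.8 and 51.2 CPM in DMSO and 181, 158, 166 and 179 CPM in OL9-119 (1.87 ± 0.12, adjusted p = 5.55e-18). Neither gene came near an overlap. The cytokine gene GDF15 rose from 18.3 ± 3.23 to 70.3 ± 8.57 CPM (1.95 ± 0.20) and VEGFA, the vascular growth factor, from 43.6 to 131 CPM (1.59 ± 0.12). SESN2, a leucine sensor that acts on mTORC1, rose by 1.08 ± 0.13, the ER protein gene HERPUD1 by 1.09 ± 0.16, and CTH, which makes cysteine from cystathionine, by 2.07 ± 0.28. INHBE and VLDLR were the remaining called members.

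Amino acid supply was represented by enzymes and by transporters. Of 16 genes of serine, one-carbon, proline and asparagine synthesis 7 rose and 0 fell, with a median of 0.30. PSAT1, an enzyme of serine synthesis, stood between 92.2 and 101.3 CPM in DMSO and between 195 and 216 CPM in OL9-119 (1.09 ± 0.10). MTHFD2, a mitochondrial enzyme of the folate cycle, rose from 170 to 337 CPM (0.98 ± 0.11), ALDH1L2 from 7.68 to 28.7 CPM (1.90 ± 0.28), and PSPH, GPT2 and SHMT2 by 1.19, 0.92 and 0.53 on the log2 scale, and PHGDH was also called. ASNS, the asparagine synthetase often used as a reporter of ATF4, was counted at a low level here, with 1.57 CPM in DMSO and 4.90 CPM in OL9-119 (1.62 ± 0.63, adjusted p = 0.168), and it shares an exon with another listed gene.

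Among 12 amino acid transporter genes 7 rose and 0 fell, with a median of 0.80. SLC7A11, the cystine importer, stood at 13.5, 10.7, 7.91 and 17.8 CPM in DMSO and 80.0, 55.9, 97.6 and 103.7 CPM in OL9-119 (2.76 ± 0.22, adjusted p = 2.99e-14). The lowest treated library was above the highest DMSO library, and OL9-119 replicate 2 was the lowest of the treated ones. SLC6A9, a glycine transporter, rose from 3.43 to 21.3 CPM (2.68 ± 0.39), SLC7A5, which carries large neutral amino acids, from 89.2 to 211 CPM (1.24 ± 0.17), and its partner chain SLC3A2 from 376 to 586 CPM (0.64 ± 0.12). SLC7A1 for cationic amino acids rose by 1.11 ± 0.14 and SLC38A2 for small neutral ones by 0.84 ± 0.12. SLC1A4 was also called. Against the untreated cells the adjusted p was 0.027 for SLC6A9, 0.026 for CTH and 0.016 for ALDH1L2, so that these calls depended on the control used.

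Aminoacyl-tRNA synthetases load tRNAs with amino acids, in the cytosol and in mitochondria with mostly separate enzymes. Of 20 cytosolic synthetase genes 7 rose and 0 fell, with a median of 0.24. CARS1 stood at 96.6, 73.7, 69.8 and 59.96 CPM in DMSO and 162.9, 182.3, 142.9 and 125.999 CPM in OL9-119 (1.03 ± 0.13), without overlap. The others that rose were AARS1 (0.75 ± 0.11), GARS1 (0.66 ± 0.11), MARS1 (0.59 ± 0.10), YARS1 (0.55 ± 0.11), TARS1 (0.46 ± 0.10) and IARS1. Of 17 mitochondrial synthetase genes 0 were called, with a median of 0.07 and values from -0.64 to 0.73. With 1.15% called over all genes, 0 of 17 is near that share. The call for YARS1 was lost without OL9-119 replicate 2, and that for TARS1 without DMSO replicate 1 or OL9-119 replicate 4.

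**Figure D1:**
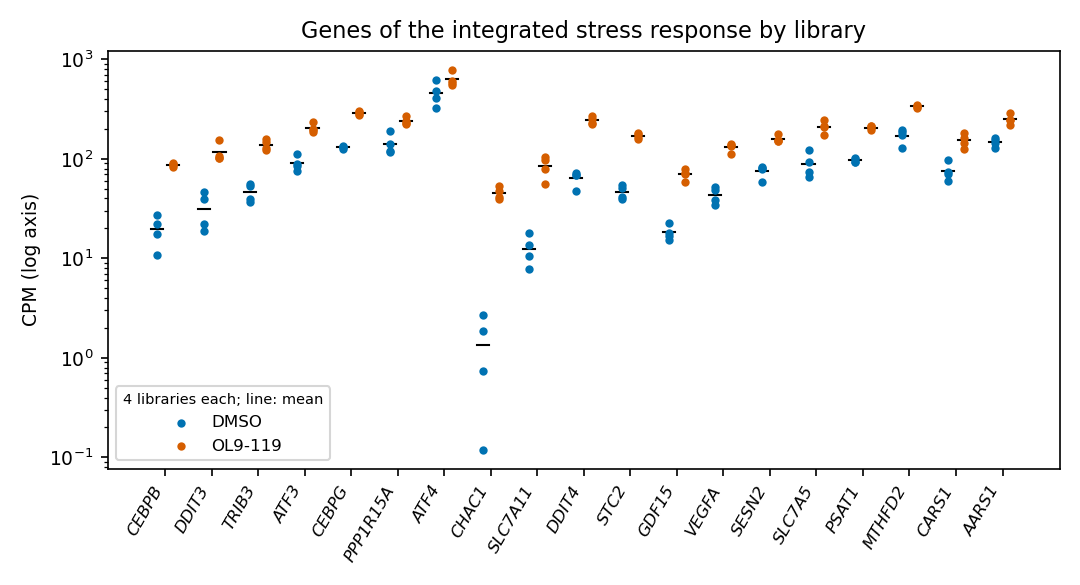
CPM (y axis, log scale) of 19 genes of the integrated stress response in the 4 DMSO (blue) and 4 OL9-119 (orange) libraries of WT cells, with the mean as a line. Points of the groups are apart for every gene except ATF4, whose DMSO value of 621 CPM lies within the treated range.

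Of 28 genes of the mitochondrial genome tested 12 fell and 0 rose, and reads on this genome made up 6.38 to 8.25% of counts in DMSO and 4.73 to 5.95% in OL9-119. MT-ND5 (ENSG00000198786, 12337 to 14148 on the mitochondrial genome, hg38), a subunit of complex I, stood at 2503, 3423, 2553 and 3000 CPM in DMSO and 558, 697, 539 and 570 CPM in OL9-119. The groups were far apart, with means of 2870 ± 432 and 591 ± 71.98 CPM and a log2 fold change of -2.28 ± 0.23 (adjusted p = 1.17e-10). Untreated and Tpc-treated WT cells averaged 2671 and 2652 CPM. Of the 12 protein genes on the heavy strand 8 fell, with a median of -0.75. After MT-ND5 these were MT-ND3 (-1.51 ± 0.21), MT-CO2 (-0.996 ± 0.124), MT-CO3 (-0.91 ± 0.15), MT-CYB (-0.81 ± 0.13), MT-ND4 (-0.77 ± 0.12), MT-ATP6 (-0.73 ± 0.12) and MT-CO1 (-0.61 ± 0.08).

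MT-CO1, a subunit of cytochrome c oxidase, shows the smaller end of this range, with 17020, 16609, 14458 and 14536 CPM in DMSO and 9849, 10987, 10166 and 9896 CPM in OL9-119. The libraries did not overlap. The members that did not pass were MT-ND1 (-0.44 ± 0.14, adjusted p = 0.068), MT-ND2 (-0.49 ± 0.15, 0.0609), MT-ND4L (-0.41 ± 0.18) and MT-ATP8 (-0.45 ± 0.28). The heavy-strand count was 8 or 9 when any one of the 8 libraries was left out. MT-ATP8, MT-ATP6 and MT-CO3 overlap at their ends, as do MT-ND4L and MT-ND4, and how reads on shared bases were assigned was decided by the counting of the authors.

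The light strand carries a single protein gene, MT-ND6, and several tRNA genes. MT-ND6 stood at 264, 271, 588 and 467 CPM in DMSO and 164.2, 123.97, 152.6 and 165.0 CPM in OL9-119 (-1.39 ± 0.23, adjusted p = 4.21e-05), with a wide spread in DMSO and no overlap. MT-TQ, the glutamine tRNA, was counted 159, 86, 136 and 83 times in DMSO and 4, 0, 1 and 3 times in OL9-119 (-6.03 ± 0.86, adjusted p = 1.77e-06). It overlaps MT-TI on the opposite strand, so that reads of the pair may not be fully separated. MT-TP, the proline tRNA, was counted 147, 97, 159 and 109 times in DMSO and 8, 38, 12 and 12 times in OL9-119 (-3.04 ± 0.55, adjusted p = 0.000232). Both tRNA genes were lower in all treated libraries. The libraries were made from poly(A)-selected RNA, and which molecules gave these reads was not tested. Of the rRNAs, MT-RNR2 (16S) fell by 0.59 ± 0.12 (adjusted p = 0.00125) and MT-RNR1 (12S) had 0.31 ± 0.19 (adjusted p = 0.386). The call for MT-RNR2 was lost without OL9-119 replicate 1 or without OL9-119 replicate 4 (adjusted p = 0.0131 and 0.0125).

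**Figure D2:**
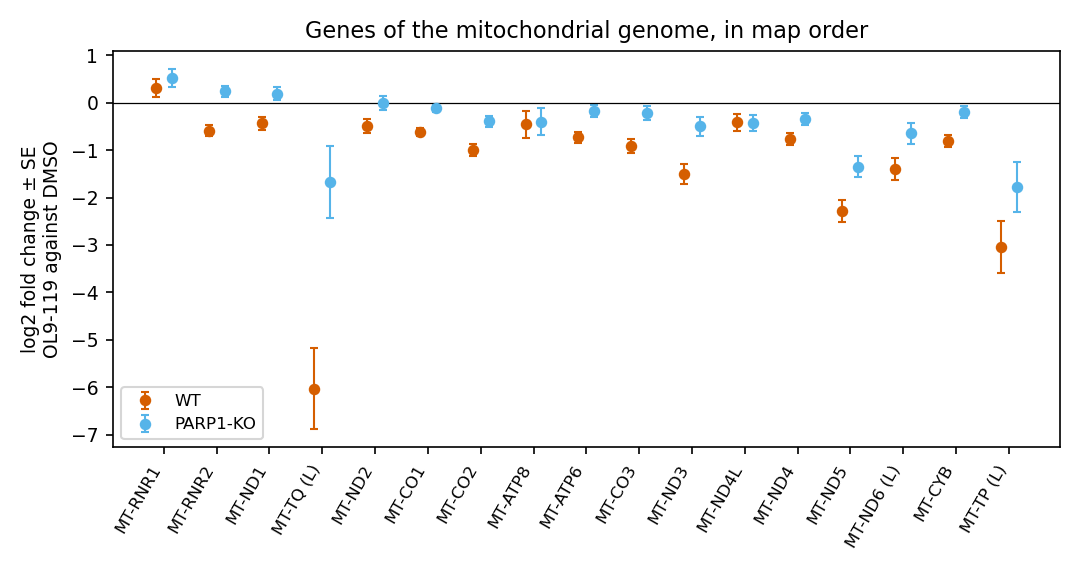
Log2 fold change with its standard error (y axis, OL9-119 against DMSO) of 17 genes of the mitochondrial genome in map order, in WT (orange) and PARP1-KO (blue) cells, with (L) marking light-strand genes. In WT cells MT-TQ (-6.03), MT-TP (-3.04) and MT-ND5 (-2.28) lie lowest and only MT-RNR1 lies above 0.

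Respiratory complexes are completed by subunits from nuclear genes. Of 37 nuclear complex I genes 5 fell and 0 rose, with a median of -0.46, the called ones being NDUFB4 (-0.95 ± 0.15), NDUFB3 (-1.05 ± 0.20), NDUFS5 (-0.75 ± 0.15), NDUFA2 and NDUFA12. NDUFB3 stood at 27.3, 44.4, 50.6 and 30.7 CPM in DMSO and 15.95, 22.4, 18.6 and 17.1 CPM in OL9-119. Of 39 genes of complexes II to V, 7 fell and 0 rose, with a median of -0.47, among them the ATP synthase subunits ATP5PF (-1.05 ± 0.16) and ATP5MC3 (-0.78 ± 0.11) and the oxidase subunits COX7B (-0.99 ± 0.16) and COX7A2 (-0.84 ± 0.13). Most members of both lists had negative values, 33 of 37 and 38 of 39. The counts moved with the libraries: complex I ranged from 2 (without DMSO replicate 3 or OL9-119 replicate 4) to 9 (without DMSO replicate 4), and complexes II to V from 4 to 13. Without DMSO replicate 3 the medians were -0.28 and -0.26, and with the 8 libraries fitted alone 1 and 4 genes were called. NDUFA2 and NDUFA12 each lost the call in 6 of 8 fits without 1 library. COA3, an assembly factor of the oxidase, fell from 79.3 to 30.8 CPM (-1.36 ± 0.18). Of 26 genes that transcribe and replicate the mitochondrial genome 1 fell (FASTKD5, -0.88 ± 0.19, groups overlapping, call lost in 5 of 8 such fits) and 0 rose. Of 48 mitochondrial ribosomal protein genes 0 were called, near the 1.15% called over all genes. Of 14 mitochondrial chaperones and proteases HSPE1 fell (-1.10 ± 0.22), a call lost without OL9-119 replicate 1.

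The fold changes of short and long transcripts differed in their medians. Among protein-coding genes with a mean of at least 50 counts, the 2267 with the shortest exon length gave 89 lower and 29 higher calls at a median log2 fold change of -0.16, and the 2267 longest gave 10 lower and 22 higher at a median of 0.14. Within a library, the median log2 level of the shortest quartile of these genes less that of the longest quartile was -0.29, -0.67, 0.11 and -0.75 in DMSO and -0.66, -0.29, -0.77 and -0.79 in OL9-119. The groups overlapped, and DMSO replicate 3 alone was above 0. The bins of the fold change ran from -0.04 to 0.01 for DMSO against untreated cells. Length and GC content entered as offsets left 6 lower calls and a median of -0.40 for complex I, 9 and -0.40 for complexes II to V, and 8 and -0.64 for the heavy-strand genes.

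Of 16 cytosolic heat shock genes 8 fell and 0 rose, with a median of -0.56, and 4 were called with the 8 libraries fitted alone. HSPA8 (ENSG00000109971, minus strand), the constitutive HSP70 chaperone, stood at 1472, 1608, 1600 and 1390 CPM in DMSO and 422, 502, 421 and 404 CPM in OL9-119. The means of 1517 ± 105 and 437 ± 44.2 CPM gave -1.79 ± 0.13 (adjusted p = 1.37e-16), and no library overlapped. HSPA1B, an inducible HSP70 gene, stood at 593.9, 550.3, 876.3 and 836.9 CPM in DMSO and 137.9, 128.8, 129.8 and 145.9 CPM in OL9-119 (-2.40 ± 0.15, adjusted p = 5.55e-18). It shares nearly all of its sequence with HSPA1A (5.93 and 3.17 CPM, adjusted p = 0.297), and the division of reads between these copies is uncertain. The co-chaperones DNAJB1, at 234, 186, 274 and 209 CPM in DMSO and 116.2, 101.8, 108.9 and 97.4 CPM in OL9-119 (-1.09 ± 0.10), and DNAJA1 (417 to 217 CPM, -0.94 ± 0.10) fell as well. HSPH1 (-0.58 ± 0.10), HSP90AA1 (-0.58 ± 0.11), HSP90AB1 and DNAJB4 were also called lower. The count was 7 to 9 when any library was left out, and HSP90AA1 lost its call without DMSO replicate 3 (adjusted p = 0.013).

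The promoter of HSPA8 is shown for its matches to the core of the heat shock element, which HSF1 binds, written here as GAA, TTC and GAA with 2 free bases between each, searched on both strands. The core stood in 0.608% of the 27305 genes with a window and in 4 of the 8 heat shock genes that fell (DNAJA1, HSP90AA1, HSP90AB1 and HSPA8), and in 6 of the 15 list members with a window. The HSPA8 sites, in capitals, lie 230 to 218 bases (chr11:123062334-123062386) and 55 to 43 bases (chr11:123062159-123062211, core on the opposite strand) before the start, on the minus strand of GRCh38.p14 in RefSeq.
HSPA8 upstream: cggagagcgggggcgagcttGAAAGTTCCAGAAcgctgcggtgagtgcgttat
HSPA8 near start: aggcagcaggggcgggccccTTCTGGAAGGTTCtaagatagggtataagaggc

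**Figure D3:**
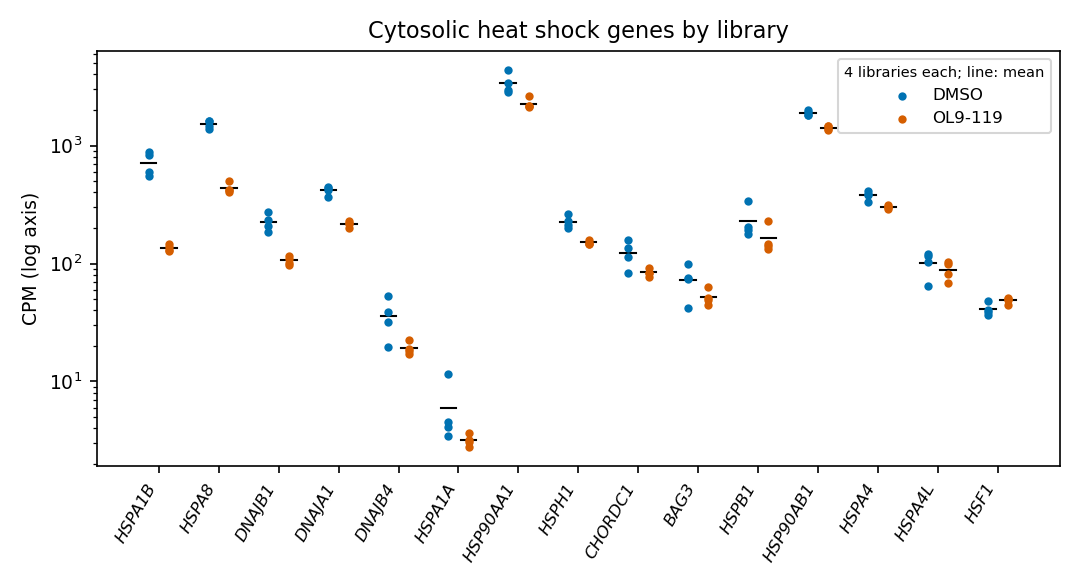
CPM (y axis, log scale) of 15 cytosolic heat shock genes in the 4 DMSO (blue) and 4 OL9-119 (orange) libraries of WT cells, with the mean as a line. HSPA1B and HSPA8 show the widest gap between the groups, with means of 714 and 1517 CPM in DMSO and 136 and 437 CPM in OL9-119. HSPA6 is left out because some libraries held 0 counts.

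Other gene groups gave few calls. Over all genes 0.488% rose and 0.66% fell, and 1 call among 78 ribosomal protein genes is near these shares. In glucose sensing the arrestin-like genes went opposite ways: ARRDC3 rose from 15.4 to 49.6 CPM (1.68 ± 0.16) and TXNIP fell from 113 to 56.9 CPM (-0.99 ± 0.14). The glycolytic genes PGAM1 (-0.72 ± 0.13), LDHA (-0.51 ± 0.12) and TPI1 (-0.46 ± 0.11) fell too, so that 1 of 26 genes in that list rose and 4 fell. The lower count was 2 without DMSO replicate 1 or 3 or without OL9-119 replicate 1, 3 or 4, and 1 with the 8 libraries fitted alone, the call being lost in 6 of 8 fits without 1 library for LDHA and in 5 for TPI1. Of 25 NRF2 and glutathione genes SLC7A11 rose, while PRDX1 (537 to 280 CPM, -0.94 ± 0.12) and TXN (-0.59 ± 0.13), which reduce peroxides and disulfides, fell, the call for TXN being lost in 5 of 8 fits without 1 library. Of 23 ER chaperone and unfolded protein response genes 2 rose, HERPUD1 and XBP1 (0.71 ± 0.13), with a median of -0.09. Small nuclear ribonucleoprotein genes made up 5 of the 6 spliceosome genes of 44 that fell (SNRPE, SNRPG, SNRPD2, SNRPD3 and SNRPF, with SRSF3), a count that was 1 without DMSO replicate 3 or without OL9-119 replicate 4 and 9 without DMSO replicate 4, and 0 with the 8 libraries fitted alone. Of 78 cytosolic ribosomal protein genes 1 fell (RPL7A) and of 33 proteasome subunits 1 (PSMA3), with medians of -0.33 and -0.28. Without DMSO replicate 4 the ribosomal protein count was 15, without OL9-119 replicate 2 it was 13, without DMSO replicate 2 it was 7, and without any other library it was 0. Under the replicate block it was 16, and without a filter on low counts 26, and the ribosomal protein median was -0.11 without DMSO replicate 3. The call for PSMA3 was lost in 6 of 8 fits without 1 library.

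Of 32 base excision repair genes 3 fell, FEN1 (-0.60 ± 0.12), PCNA (-0.53 ± 0.11) and HMGB1 (-0.52 ± 0.11), and MUTYH rose (1.21 ± 0.27). With the 8 libraries fitted alone 0 genes of this list were called, and the calls were lost in 5 of 8 fits without 1 library for MUTYH and in 4 for PCNA and HMGB1. Of 33 genes of homologous recombination, the Fanconi pathway and checkpoints 0 were called, near the 1.15% called over all genes. Of 28 p53 target genes 2 rose, SESN2 and GADD45B (0.97 ± 0.13). Of 30 G2/M genes PTTG1 (-0.76 ± 0.14) and CCNB1 (-0.56 ± 0.12) fell, and of 42 G1/S genes PCNA alone. Among NF-κB genes 4 of 26 rose (IER3, NFKBIA, TNFAIP3 and RELB, by 0.75 to 0.87), and among AP-1 and immediate early genes 5 of 29 (IER3, JUN, DUSP1, JUNB and KLF4). The NF-κB count was 2 to 5 without 1 library and 0 with the 8 libraries fitted alone, and the AP-1 count was 1 in that fit. RELB and KLF4 lost their calls in 5 and TNFAIP3 and JUNB in 4 of 8 fits without 1 library. Of 17 hypoxia genes 2 rose (VEGFA and BHLHE40), of 6 metal response genes the transferrin receptor gene TFRC (0.94 ± 0.20), and of 16 BCL2 family genes HRK (0.76 ± 0.18). The call for HRK was lost in 6 of 8 fits without 1 library, that for CCNB1 in 5 and that for TFRC in 2. Lists of xenobiotic, cholesterol, autophagy and nucleolar genes gave 0 calls, again near the share over all genes. In all, 227 of the 332 called genes belonged to none of the 36 lists, among them CALCB (1.81 ± 0.24) and C11orf96 (1.77 ± 0.23), which rose, and GTF2H5 (-1.27 ± 0.20), ATOX1 (-1.25 ± 0.23), DYNLL1 (-1.19 ± 0.15) and TNFRSF10D (-1.18 ± 0.15), which fell.

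OL9-119 was also set directly against Tpc, each in the same amount of DMSO. The comparison shares the OL9-119 libraries with the main one. It called 274 genes, 0.947% of those tested, of which 133 were higher with OL9-119 (0.46%) and 141 higher with Tpc (0.488%). CHAC1 was at 45.6 CPM with OL9-119 and 7.69 CPM with Tpc (2.56), DDIT4 at 244 and 66.5 CPM (1.87), DDIT3 at 116.3 and 34.7 CPM (1.74) and TRIB3 at 139 and 48.1 CPM (1.53). ATF3 went the other way, with 205 CPM under OL9-119 and 358 CPM under Tpc (-0.80, adjusted p = 2.6e-07), as did PPP1R15A with 241 and 393 CPM (-0.71). The chemokine genes CXCL8, CCL20 and CXCL1 stood at 17.95, 3.72 and 0.75 CPM with OL9-119, near the 15.2, 3.63 and 0.514 CPM of DMSO, and at 354, 73.0 and 13.8 CPM with Tpc.

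By list, OL9-119 was higher than Tpc in 9 of 20 stress response effectors and 13 of 30 G2/M genes, and lower in 12 of 26 NF-κB genes, 9 of 29 AP-1 genes, 6 of 16 heat shock genes and 4 of 12 heavy-strand mitochondrial genes. Against DMSO, Tpc itself lowered 18 of the G2/M genes and raised 17 NF-κB and 10 AP-1 genes. It also raised 4 of the effectors and 5 of 18 stress response regulators, and lowered 2 heat shock and 0 heavy-strand genes. These contrasts thus hold changes made by either compound. Between OL9-119 and Tpc, MT-ND5 differed by -2.17 and MT-TQ by -5.90 on the log2 scale. HSPA8 stood at 437 CPM with OL9-119 and 1075 CPM with Tpc (-1.30), and HSPA1B at 136 and 387 CPM (-1.51). PRKG1, a cGMP-dependent kinase gene, was at 16.7 CPM with OL9-119, 17.3 with DMSO and 4.37 with Tpc, and the histone gene H2AC6 was at 16.3 and 4.49 CPM with OL9-119 and Tpc. Matched by replicate number, H2AC6 was higher with OL9-119 than with DMSO in 4 of 4 libraries and PRKG1 in 2. For H2AC6 the differences of log2(CPM + 1) were 0.28, 1.73, 1.51 and 1.14. Whether the numbers pair the samples could not be decided, so these differences are descriptive only.

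PARP1 mRNA in the PARP1-KO libraries stood between 30.4 and 46.6 CPM in DMSO and between 33.2 and 42.0 CPM in OL9-119, against 737.3 CPM or more in WT. In PARP1-KO cells the same dose altered 1 gene (0.00346%), MT-ND5, which fell by 1.35 ± 0.23 on the log2 scale (adjusted p = 0.00426), and 671 genes had an unadjusted p below 0.05. That call was lost in 7 of 8 settings that left out 1 library, and DESeq2 called 0 genes. MT-ND5 stood at 2079, 1659, 712 and 1754 CPM in DMSO and 672, 438, 659 and 668 CPM in OL9-119, with DMSO replicate 3 close to the treated range.

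The difference of the response between WT and PARP1-KO cells was tested as such, and 29 genes passed (0.1%), 23 with the more positive change in WT (0.0795%) and 6 with the more negative (0.0207%). All 29 were among the genes called in WT, and 17 belonged to the 5 stress response lists. The test of the difference uses the same WT libraries, so the overlap with the WT calls follows largely from the design. The lists held 86 of the 28922 genes tested and 39 of the 332 genes called in WT. They were chosen with earlier results of these data known, so the 17 are no independent test. The widest gap was that of CHAC1, which in PARP1-KO cells stood at 8.72, 9.37, 25.4 and 13.2 CPM in DMSO and 16.8, 23.3, 20.1 and 22.1 CPM in OL9-119 (0.54 ± 0.35), a difference of 4.44 ± 0.56 from WT (adjusted p = 4.28e-07). DDIT3 stood at 95.7, 88.3, 128.5 and 102.2 CPM and 125.3, 135.3, 138.1 and 130.3 CPM in the same libraries, a difference of 1.52 ± 0.25. For STC2 the means were 138 and 142 CPM, with a difference of 1.84 ± 0.17. The DMSO levels of these 3 genes in PARP1-KO cells lay above all WT DMSO libraries. For 20 of the 29 genes the WT OL9-119 mean was nearer the PARP1-KO DMSO mean than the WT DMSO mean was. These means also entered the test that picked the 29 genes, and the share over all genes was not taken. The count therefore describes these genes only and is no separate support.

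HSPA8 had PARP1-KO means of 742 CPM in DMSO and 552 CPM in OL9-119 (-0.43 ± 0.12), a difference of -1.37 ± 0.17 from WT (adjusted p = 4.71e-07), and HSPA1B of 411 and 319 CPM, a difference of -2.03 ± 0.21. DNAJB1 (-0.93 ± 0.15), DNAJA1 (-0.82 ± 0.15), TXNIP (-1.13 ± 0.19) and MT-RNR2 (-0.83 ± 0.17) completed the genes with the more negative change in WT. The difference for MT-ND5 was not among the 29. The knockout is a single line, so that loss of PARP1 and other features of that line cannot be told apart.

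**Figure D4:**
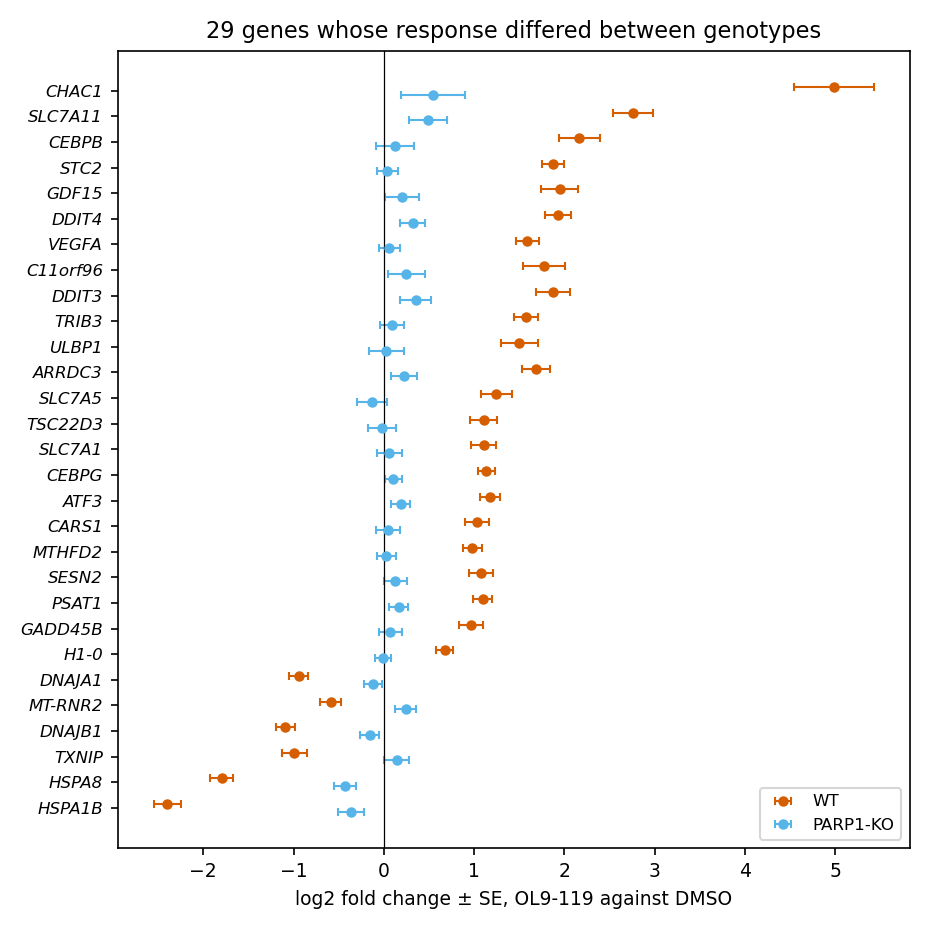
Log2 fold change with its standard error (x axis, OL9-119 against DMSO) of the 29 genes whose response differed between genotypes, in WT (orange) and PARP1-KO (blue) cells. WT values run from -2.40 (HSPA1B) to 4.98 (CHAC1), and the PARP1-KO values lie between -0.43 (HSPA8) and 0.54 (CHAC1).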

How the data were processed

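Poly(A) RNA of HEK293A cells was sequenced from directional libraries as 100 bp paired reads. Per the labels and the study's methods, the authors mapped the reads on hg38 by STAR 2.7.8 with the Ensembl 93 annotation, counted them with its GeneCounts option, and deposited raw counts per gene with no normalization, filter or pooling. The submitters' processing notes also name FastQC 0.11.9 and Picard 2.26.6. The strand column that was kept is not given in the sources used here. All 40 columns matched a sample by name, and 0 columns of other samples were present.

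Groups followed the sample titles. Genes with at least 10 counts summed over 40 libraries were kept, TMM normalization was applied, and 1 group per condition was fitted in edgeR 4.0.16 (glmQLFit and glmQLFTest, R 4.3.3), with contrasts called at a Benjamini-Hochberg adjusted p below 0.01. CPM are counts scaled to the TMM-adjusted library size. The SE of a log2 fold change was taken from the F statistic. DESeq2 1.42.0 was an alternative (limma 3.58.1 was loaded by edgeR). Symbols, positions and exon overlaps came from GENCODE 44, which matched 57754 genes. Of 130 genes named, 55 share exonic bases with another gene. Promoter windows came from RefSeq tables of GRCh38.p14. The code was also run on simulated counts with known changes, built from the means and dispersions of the main fit. Of 100 genes changed by 1 on the log2 scale 64 were called, and of 100 changed by 2, 85. All of these had the right direction, and 4 unchanged genes were called. A gene that was not called may therefore still have changed.

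Named genes were the 12 highest and 12 lowest fold changes among called genes with a mean of at least 50 counts and no overlap between groups, called list members (up to 6 per direction with values), all members of the first list and of the mitochondrial protein lists, the target genes, and up to 5 per direction in the other contrasts. Other members are named without this rule, after their values were seen. The members and lists were chosen with earlier results of these data known. Alternatives were other normalization, filters, sample sets, tools, thresholds, the replicate block, the title prefix as a batch, length and GC offsets, an untreated comparator and leaving out each library; leaving out DMSO replicate 3 and OL9-119 replicate 2 together was chosen after seeing the data. The labels number the libraries as biological replicates and the methods call them technical, so p-values measure only the spread between these libraries. Same-numbered DMSO and OL9-119 libraries were checked for pairing (sensitivity to it is given below).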

Additional observations from a re-analysis of the deposited data

Results flagged for a closer look

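In each group of 4 libraries a library was set apart where its gap to the nearest other library, as a share of the group's range, exceeded Dixon's critical value. Of 266 groups 33 were set apart, where about 1 in 20, or 13.3, would be for unselected and separate values. Most groups were of genes named from these same libraries, and genes can vary together within a library. The 13.3 is therefore no valid yardstick for the 33. OL9-119 replicate 2 accounted for 19 of them and DMSO replicate 3 for 6. In OL9-119 replicate 2 these were, in CPM, the high values of DDIT3 (154.9), MT-RNR2 (16145), PPP1R15B (79.93), MT-ND1 (1754), MT-CO3 (4508), MT-CYB (3423), COX7B (125.5), RPL7A (2900), SNRPD2 (156.9), SNRPD3 (219.2), HSP90AA1 (2648), PRDX1 (325.8), TXN (564.0), PTTG1 (131.6), CCNB1 (253.6) and HMGB1 (655.4), the low values of EIF2AK4 (77.63) and SLC7A1 (184.8), and the share of counts on mitochondrial genes (5.946%). In DMSO replicate 3 they were CD69 (4.195), PARP1 (737.3), PSPH (10.19), NDUFS5 (193.2), SNRPE (223.6) and SNRPF (152.2). In DMSO replicate 1 they were DDIT4 (47.32), TXNIP (128.3), GPT2 (45.83) and HERPUD1 (49.24), in DMSO replicate 2 CEBPG (126.5), and in DMSO replicate 4 PPP1R15B (55.57), BATF2 (1.722) and SESN2 (58.23).

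The response to OL9-119 differed between WT and PARP1-KO cells in 29 genes by the test of the difference itself (edgeR, adjusted p below 0.01). On the log2 scale the WT change exceeded the PARP1-KO change by 4.44 for CHAC1, 2.28 for SLC7A11, 2.04 for CEBPB, 1.84 for STC2, 1.75 for GDF15, 1.61 for DDIT4, 1.53 for VEGFA, 1.52 for C11orf96 and for DDIT3, 1.48 for TRIB3, 1.46 for ARRDC3, 1.38 for SLC7A5, 1.05 for SLC7A1, 1.03 for CEBPG, 0.99 for ATF3, 0.98 for CARS1, 0.96 for MTHFD2, 0.95 for SESN2, 0.93 for PSAT1 and 0.89 for GADD45B. It was -2.03 for HSPA1B, -1.37 for HSPA8, -1.13 for TXNIP, -0.93 for DNAJB1, -0.83 for MT-RNR2 and -0.82 for DNAJA1.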

How the results depend on the processing

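No value changed direction with a call under any alternative run. For OL9-119 against DMSO in WT, 332 genes became 556 (223 higher, 333 lower) with no filter, 137 (71, 66) with WT libraries only, 95 (54, 41) with the 8 libraries alone, 692 (288, 404) with DESeq2 on all libraries, 212 (92, 120) with DESeq2 on 8, 783 (351, 432) at an adjusted p below 0.05 and 74 (52, 22) with a log2 change of at least 1, and 291 fell with length and GC offsets. RLE gave 339, filterByExpr 388 and the title prefix as a batch 257. OL9-119 against untreated cells gave 648 (no filter), 162 (WT only), 138 (compared libraries), 708 (DESeq2), 816 (0.05) and 71 (log2 of 1), against Tpc 137 (WT only), 505 (compared libraries), 556 (DESeq2), 532 (0.05) and 89 (log2 of 1), in PARP1-KO cells 4 (no filter), 0 (filterByExpr, offsets and DESeq2) and 14 (compared libraries), and the difference 52 (no filter), 48 (DESeq2) and 19 (log2 of 1). DMSO against untreated cells gave 15 with DESeq2. Leaving out 1 library gave 187 to 595 against DMSO (100 to 265 higher, 87 to 330 lower), 189 to 713 against untreated cells, 184 to 218 against Tpc, 0 to 1 in PARP1-KO cells, 22 to 36 for the difference and 0 for the solvent. Without DMSO replicate 3 and OL9-119 replicate 2 together, 202 genes were called against DMSO (96 higher, 106 lower). Against untreated cells the counts were 189, 201 and 713 without untreated replicates 1, 3 and 4, and 217, 208 and 202 without OL9-119 replicates 1, 3 and 4. With the 8 libraries alone 8 heavy-strand genes, 4 heat shock genes and, of the 5 stress response lists in the order described, 7, 8, 5, 5 and 2 genes were called, with 1 for complex I, 4 for complexes II to V, 1 for AP-1 and 0 for spliceosome, NF-κB, base excision repair, G2/M and mitochondrial rRNA genes. Of the named calls, SLC6A9, CTH, ALDH1L2, CALCB, SHMT2, MT-RNR2, FASTKD5, NDUFB4, NDUFA2, NDUFA12, UQCRQ, BHLHE40, IER3, TNFAIP3, RELB, JUNB, KLF4, MUTYH and HRK, 19 in all, were lost against untreated cells. The cause of these shifts was not tested.

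Same-numbered DMSO and OL9-119 libraries deviated together with correlations of 0.05, -0.19, -0.29 and 0.38, and 1 of 4 numbers matched its own best. With so few values, which include DMSO replicate 3 and OL9-119 replicate 2, this check cannot decide whether the numbers pair the samples. The replicate block called 272 genes, 157 of them lower and 209 shared with the fit without it, 339 against untreated cells, 214 against Tpc, 1 in PARP1-KO cells and 36 for the difference. Depth limits genes with few counts, such as CHAC1 in DMSO.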

Other observations

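The title prefixes, whose meaning the labels do not give, put replicate 1 of both groups under 1 prefix, replicate 2 under another and replicates 3 and 4 under the third. Within these prefixes the difference of log2(CPM + 1) between OL9-119 and DMSO was 3.89, 4.61 and 4.63 for CHAC1, -2.16, -2.29 and -2.32 for MT-ND5, and -1.80, -1.68 and -1.85 for HSPA8.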
